A study of Mus musculus with 4 samples.

Results

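The ubiquitin ligases that striated muscle uses to mark proteins for the proteasome were examined on 4 Affymetrix Mouse 430 2.0 arrays of RNA labelled as mouse heart. The rule took every probe set, the group of short probes that reads a transcript, whose assigned symbol was exactly Trim63, Trim54, Trim55, Trim45, Fbxo32, Fbxo30, Fbxo40, Cbl, Nedd4 or Wwp1. It found 19 probe sets of 8 genes among 45037 probe sets that were not array controls. Trim55 and Fbxo40 had no probe set of that symbol in the annotation used, so their expression was not analysed here. By label, 2 arrays were Rhau KO (CAAG-ERT2-Cre;Rhau F/F) and 2 were Control (Rhau F/F). All 4 came from adult C57BL/6J mice that were given 5 tamoxifen doses at 2 months of age, and hearts were taken 2 months later. Both groups thus carried the floxed alleles and received tamoxifen, and the Cre of this line is not driven by a heart promoter. The comparison asks which transcripts of the adult heart differ after Rhau is removed.

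A ubiquitin ligase chooses the protein to be tagged. Ubiquitin is activated by an E1 enzyme, passed to an E2 enzyme and then placed on the target with the help of the ligase, after which the proteasome can degrade the target. RING ligases bring the loaded E2 next to the target, HECT ligases carry the ubiquitin themselves, and F-box proteins are the target-binding part of a larger complex built on the scaffold Cul1. In skeletal muscle Trim63 (MuRF1) and Fbxo32 (atrogin-1) are best known for their rise in atrophy, and FOXO transcription factors are among their activators. In the heart they take part in the turnover of sarcomere proteins and the control of growth.

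2 features of the arrays go against their labels. Dhx36, which encodes RHAU, read 537 to 568 in the Rhau KO arrays and 194 to 327 in the Control arrays on its brightest probe set, opposite to the deletion, so all directions are given by label, and Rhau KO and Control arrays means the arrays so labelled. Control rep1 stood apart. Its Tnni3, the cardiac troponin I gene, read 10.3 against 37838 to 39371 in the other 3 arrays, and Actn3, which encodes a fast-fibre actinin, reached 46180 there against at most 34.8. Summed over 21 markers of skeletal muscle, the intensity was 712215 in Control rep1, 91306 in Control rep2 and 87622 to 87677 in the Rhau KO arrays. That of 20 ventricular cardiomyocyte markers was 223587 in Control rep1, 616991 in Control rep2 and 590357 to 602754 in the Rhau KO arrays. These sums hold genes that read high on every array, such as Ckm among the skeletal and Ttn among the cardiomyocyte markers. The median skeletal marker read 36644 in Control rep1 and 45.3 to 71.6 in the other arrays. For the cardiomyocyte markers the median was 212 in Control rep1 and 36251 to 37676 in the other arrays. Of the skeletal markers 18 of 21 read over 2-fold above the other 3 arrays in Control rep1, and of the cardiomyocyte markers 13 of 20 read over 2-fold below, as did 6 of 8 endothelial markers. Over all probe sets the shares were 6.02% above and 10.7% below. On these markers Control rep1 thus read more like skeletal muscle than like heart, and how this came about was not tested. For the endothelial markers, fewer cells and less RNA per cell cannot be told apart in whole tissue. Control rep2 in turn read 18079 for the heat shock gene Hspa1a, against 582 to 1141 elsewhere. Each ligase result is therefore given with Control rep1 shown apart. Where values of both Control arrays are given as a pair, Control rep1 comes first. The share of these features in the ligase values was not tested beyond leaving each array out.

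With all 4 arrays Trim45 had the largest log2 difference of the ligases and was 4.78-fold lower in the Rhau KO arrays, while without Control rep2 2 probe sets of Wwp1 (-2.26 and -1.89) and 1 of Fbxo32 (-1.78) lay beyond it (-1.76). Wwp1 and Fbxo32 were highest in Control rep1, where skeletal muscle markers were high, by over 2-fold above the other 3 arrays on 2 of the 3 probe sets of each. All 4 probe sets of Fbxo30 were highest in Control rep2, and both brighter probe sets of Cbl were lowest in Control rep1. Trim63, Trim54 and Nedd4 varied by under 2-fold over the 4 arrays.

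**Figure D1:**
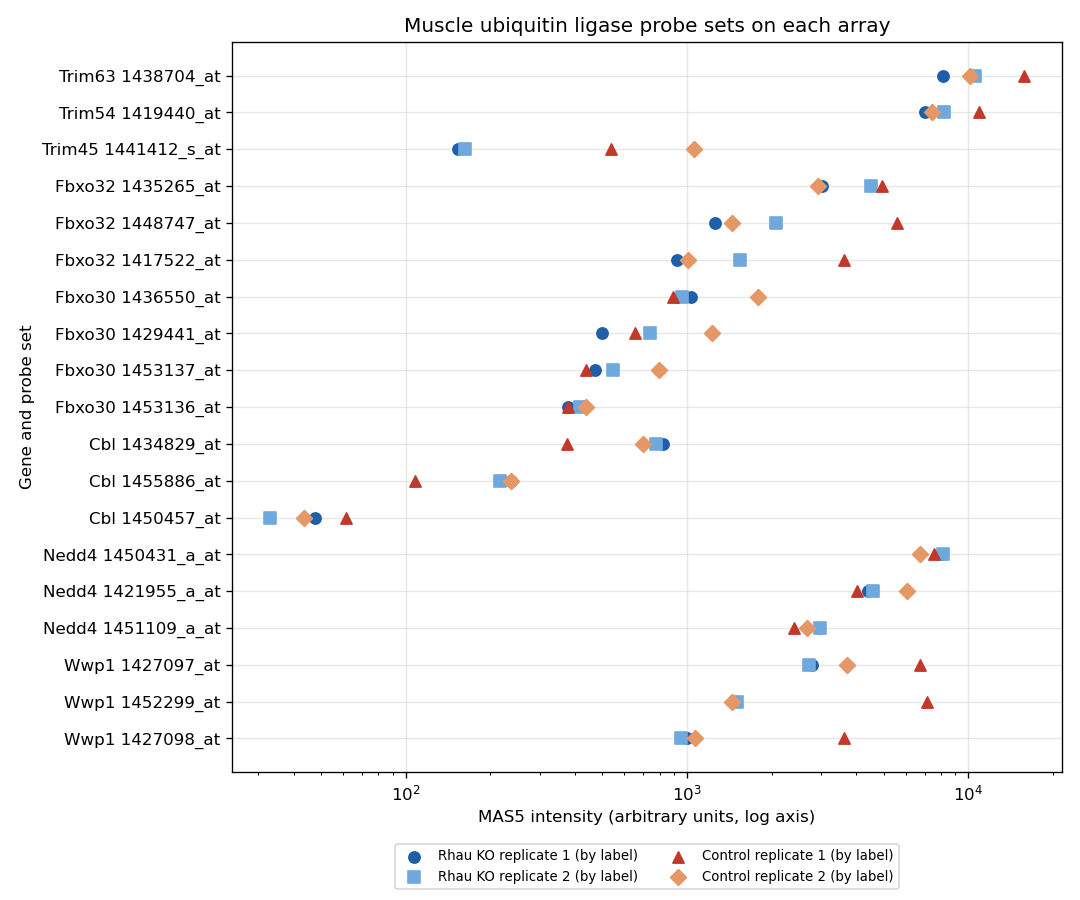
MAS5 intensity (arbitrary units, log axis) of the 19 ligase probe sets, 1 symbol per array, with the Rhau KO arrays in blue and the Control arrays in red and orange. Trim45 sits at 153 and 163 in the Rhau KO arrays and at 536 and 1062 in the Control arrays, while the 3 Wwp1 probe sets sit highest in Control rep1 (3608 to 7118).

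The MuRF ligases are RING proteins of the sarcomere. Trim63 binds titin and targets myosin heavy chain and troponin I, and Trim54 (MuRF3) associates with microtubules and the Z-disc. Trim63 read 8127 and 10563 in the Rhau KO arrays, 15820 in Control rep1 and 10166 in Control rep2. Control rep1 was thus the highest, and Control rep2 lay between the Rhau KO arrays. The log2 difference, Rhau KO minus Control, was -0.45 (standard error 0.31, adjusted p = 0.892 from limma). It was -0.13 (standard error 0.17) when Control rep1 was left out. Trim54 read 7000 and 8175 against 10918 in Control rep1 and 7416 in Control rep2. The 4 arrays kept the order they had for Trim63, with Control rep2 again between the Rhau KO arrays. Its log2 difference was -0.25 (standard error 0.27, adjusted p = 0.897 from limma), and 0.03 (standard error 0.12) without Control rep1. The genes whose log2 pattern over the 4 arrays was nearest to that of Trim63, by Euclidean distance among the brighter genes, were Slc26a11, Nol10 and Pfdn1 (distances of 0.04 to 0.06).

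The sequence before the Trim63 start is shown because FOXO factors, its known activators, are discussed with the upstream regulators. RefSeq promoter windows (GRCm38.p6) were found for 7 of the 10 genes, 9 windows in all. Fbxo32, Wwp1 and Trim55 had no window and were not searched. The 9 windows include those of Fbxo40, which had no probe set here. The 250 bases before the start of Trim63 lie at chr4:134314870-134315119 on the plus strand. Capitals mark the FOXO core TGTTTAC, the E-box CANNTG and the TATA box TATAAA, searched on both strands, and none of these matches overlap.

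Trim63: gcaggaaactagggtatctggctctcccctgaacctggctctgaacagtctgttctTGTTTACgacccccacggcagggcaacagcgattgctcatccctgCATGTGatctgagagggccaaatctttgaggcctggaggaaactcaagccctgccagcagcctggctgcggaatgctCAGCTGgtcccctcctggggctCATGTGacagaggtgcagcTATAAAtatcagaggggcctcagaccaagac

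The FOXO core began 194 bases before the start and the TATA box 31 bases before it, with E-boxes at 149, 72 and 50 bases. Of 32851 mouse promoter windows of this length, 3.17% held the FOXO core, 12.4% the TATA box and 66.2% an E-box. Among the 9 windows of the ligases, the FOXO core and the TATA box were found in that of Trim63 alone, and an E-box in 5. Fbxo32 has no window among these, so nothing is known here of its motifs. A match of letters is a description and does not show that a factor binds.

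Trim45 is a RING protein of the TRIM family outside the MuRF group, known as a restraint on MAP kinase signaling. Its probe set carries the suffix that marks probes able to match transcripts of more than 1 gene. Trim45 read 153 and 163 in the Rhau KO arrays, 536 in Control rep1 and 1062 in Control rep2. The groups did not overlap, and the Control arrays differed from each other by close to 2-fold. The mean was 158 ± 6.97 (SD, n = 2) against 799 ± 372 (SD, n = 2), or 4.78-fold lower on the log2 scale. The log2 difference was -2.26 (standard error 0.41, 95% interval -3.31 to -1.20, adjusted p = 0.892 from limma). Without Control rep1, with Control rep2 as the lone Control, the log2 difference was -2.75 (adjusted p = 0.0264 from limma). Without Control rep2 it was -1.76. Trim45 is the member for which both Control arrays lay well above both Rhau KO arrays, so its window is shown too, at chr3:100922243-100922492 on the plus strand. Capitals mark the CCAAT box, CCAAT or its reverse complement ATTGG.

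Trim45: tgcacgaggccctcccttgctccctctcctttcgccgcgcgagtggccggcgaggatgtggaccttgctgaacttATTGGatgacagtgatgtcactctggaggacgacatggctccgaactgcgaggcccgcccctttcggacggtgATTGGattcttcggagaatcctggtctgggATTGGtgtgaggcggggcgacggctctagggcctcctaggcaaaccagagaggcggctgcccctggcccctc

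This window held 3 CCAAT boxes, which began 175, 102 and 72 bases before the start, and no FOXO core, E-box or TATA box by the letters searched. Of all windows of this length 33.8% held a CCAAT box, as did 4 of the 9 of the ligases. The window of Trim45 contained 18 CpG dinucleotides and that of Trim63 contained 4.

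The F-box proteins recruit targets to a Cul1 complex. Fbxo32 targets include the translation factor Eif3f and the phosphatase calcineurin, and Fbxo30 (MUSA1) is a ligase of the atrophy program held down by BMP signaling. On its brightest probe set (1435265_at) Fbxo32 read 3011 and 4519 in the Rhau KO arrays, 4951 in Control rep1 and 2928 in Control rep2. On 1448747_at it read 1260 and 2078 against 5564 in Control rep1 and 1443 in Control rep2. On 1417522_at it read 925 and 1542 against 3607 and 1012. On all 3 probe sets Control rep1 was the highest array and Rhau KO rep2 the next, at 1.65 and 1.67 times Rhau KO rep1 on the dimmer pair. The probe sets disagreed on how far Control rep1 stood above, at 1.10-fold over the next array on the brightest and 2.34-fold and 2.68-fold on the others.

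The log2 difference of Fbxo32 between groups was -0.05, -0.81 and -0.68 on these probe sets (standard errors 0.36, 0.70 and 0.67, lowest adjusted p = 0.892 from limma). Leaving out Control rep1 turned it to 0.33, 0.17 and 0.24. The genes nearest in pattern to the brightest Fbxo32 probe set over the 4 arrays were Irak1, Mtrf1l and Cry2 (distances of 0.07 to 0.11).

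Fbxo30 read 1032 and 959 in the Rhau KO arrays, 896 in Control rep1 and 1795 in Control rep2 on its brightest probe set (1436550_at). On 1429441_at it read 499 and 737 against 656 in Control rep1 and 1229 in Control rep2. On 1453137_at it read 470 and 547 against 440 and 795. On these 3 probe sets Control rep2, the array with high Hspa1a, was 1.45-fold to 1.74-fold above the next array, and the Rhau KO arrays lay near Control rep1. On the dimmest (1453136_at) the values were 378 and 416 against 379 and 440, a spread of under 1.2-fold. The log2 differences with all arrays were -0.57 to -0.04 (lowest adjusted p = 0.892 from limma). Without Control rep1 they were -1.02 to -0.15 (lowest adjusted p = 0.122 from limma), and the probe set at -1.02 then passed both thresholds.

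Cbl is a RING ligase and adaptor that ends signaling by growth factor receptors, and its relative Cblb acts on the insulin receptor substrate in unloaded muscle. On its brightest probe set (1434829_at) Cbl read 825 and 778 in the Rhau KO arrays, 374 in Control rep1 and 701 in Control rep2. On 1455886_at it read 237 and 217 against 109 and 237. In both cases Control rep1 was the lowest array, and the next lowest was 1.87 and 2.00 times as high. On the dim 1450457_at, under 100 on every array, it read 47.7 and 33.0 against 61.6 and 43.5, with the order of the arrays not kept. The log2 differences were 0.65, 0.50 and -0.38 (standard errors 0.37, 0.47 and 0.56, lowest adjusted p = 0.892 from limma). They became 0.19, -0.07 and -0.13 when Control rep1 was left out.

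The HECT ligases Nedd4 and Wwp1 share a layout of WW domains that bind the target and a catalytic HECT domain. Nedd4 acts on membrane channels and receptors, and Wwp1 on factors such as Klf transcription factors. Nedd4 read 8067 and 8110 in the Rhau KO arrays, 7552 in Control rep1 and 6748 in Control rep2 on its brightest probe set (1450431_a_at). On 1421955_a_at it read 4395 and 4578 against 4009 and 6038, and on 1451109_a_at 2942 and 2970 against 2412 and 2665. The Rhau KO arrays were the higher on 1450431_a_at and 1451109_a_at and lay between the others on 1421955_a_at, where Control rep2 was highest. The log2 differences were 0.18, -0.13 and 0.22 (standard errors 0.20, 0.27 and 0.20, lowest adjusted p = 0.892 from limma), with 95% intervals that together ran from -0.83 to 0.74. With Control rep1 left out they were 0.26, -0.43 and 0.15 (standard errors 0.09, 0.10 and 0.11, lowest adjusted p = 0.247 from limma).

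Wwp1 read 2794 and 2724 in the Rhau KO arrays, 6714 in Control rep1 and 3717 in Control rep2 on its brightest probe set (1427097_at). On 1452299_at it read 1465 and 1509 against 7118 in Control rep1 and 1442 in Control rep2. On 1427098_at it read 998 and 952 against 3608 and 1065. Control rep1 was 1.81-fold, 4.72-fold and 3.39-fold above the next array, and the Rhau KO arrays differed from each other by under 1.1-fold. The annotation gives these 3 probe sets 1 accession, as it does for 1448747_at and 1417522_at of Fbxo32, for 3 probe sets of Fbxo30 and for 1450431_a_at and 1421955_a_at of Nedd4.

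The log2 differences of Wwp1 were -0.86, -1.11 and -1.01 (standard errors 0.33, 0.77 and 0.60, each with adjusted p = 0.892 from limma). They shrank to -0.43, 0.04 and -0.13 without Control rep1, so the size of the difference rested on that array. The groups did not overlap on 1427097_at and 1427098_at.

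**Figure D2:**
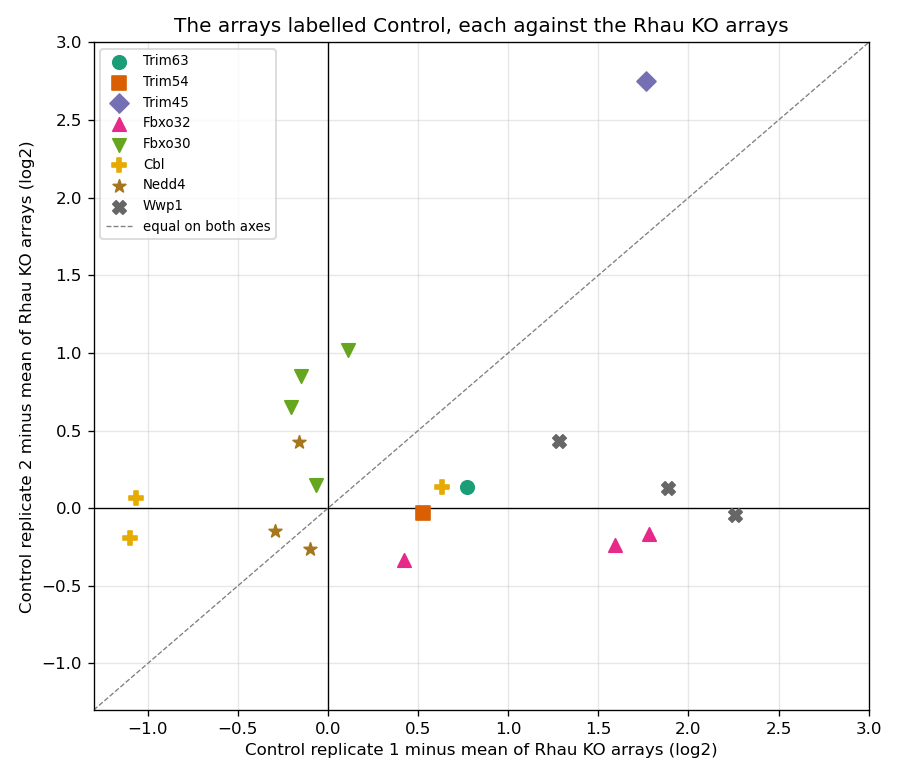
Each of the 19 ligase probe sets by its log2 difference from the mean of the Rhau KO arrays, in Control rep1 (horizontal) and in Control rep2 (vertical), with the dashed line where both are equal. Trim45 lies high on both axes (1.76 and 2.75). Wwp1 extends to 2.26 along the horizontal axis and to 0.43 along the vertical, and Fbxo30 extends to 1.02 along the vertical axis.

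Control rep1 was the highest array for 9 of the 19 ligase probe sets, against 28.6% of all probe sets. It stood over 2-fold above the other 3 for 4 of the 19, the same 2 probe sets of Fbxo32 and 2 of Wwp1, against 6.02% of all, and over 2-fold below them for 0 of 19, against 10.7%. Control rep2 was the highest for 7 of the 19, against 23.1%. Both Rhau KO arrays lay below both Control arrays for 3 of the 19, against 14.0% of all probe sets, and above both for 3 of the 19, against 21.4%. Probe sets of 1 gene share their transcript and are not independent.

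In limma, 0 of the 45037 probe sets had an adjusted p below 0.05 (0.00%), while 1892 had an unadjusted p below 0.05 (4.20%), 1 of them of a ligase. The pair of a 2-fold difference and an unadjusted p below 0.05, called both thresholds here, was passed by 1514 (3.36%), 847 higher and 667 lower in the Rhau KO arrays. With median centring the split was 664 higher and 865 lower. Trim45 was the 1 ligase probe set of 19 that passed both thresholds. It was among candidates that the study drew partly from calls on these same arrays, so its passing is no independent support. The median log2 difference was -0.35 over the 19 and 0.09 over all probe sets (-0.47 and -0.03 with median centring). By the mean log2 value 15 of the 19 were lower in the Rhau KO arrays. With 1 probe set per gene, 6 of the 8 genes were lower and 2 higher. The share of all probe sets that were lower was not counted, so this is no result about the ligases.

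Without Control rep1, 2 of the 19 passed both thresholds, Trim45 and a probe set of Fbxo30, against 4.64% of all, and Trim45 alone of the 19 passed the adjusted threshold, against 0.293% of all. The median of the 19 was then -0.13 and that of all probe sets 0.03. Of the 19, 11 were lower and 8 higher, again without a count over all probe sets. Without Control rep2, which leaves the array with skeletal muscle transcripts as the lone Control, 8 of the 19 passed both thresholds, against 15.6%, and 9 of the 19 passed the adjusted threshold, against 14.0%. In these comparisons the lone Control array is assumed to vary like the others. Whether the replicates are separate mice is not given in the sources used here, so the spread between these arrays may be technical. The limma p-values rest on that spread, pooled in part over all probe sets. With all arrays, the Control spread holds the gap between Control rep1, with its skeletal muscle transcripts, and Control rep2. The smallest two-sided p that exact permutation allows for these group sizes is 0.333.

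**Figure D3:**
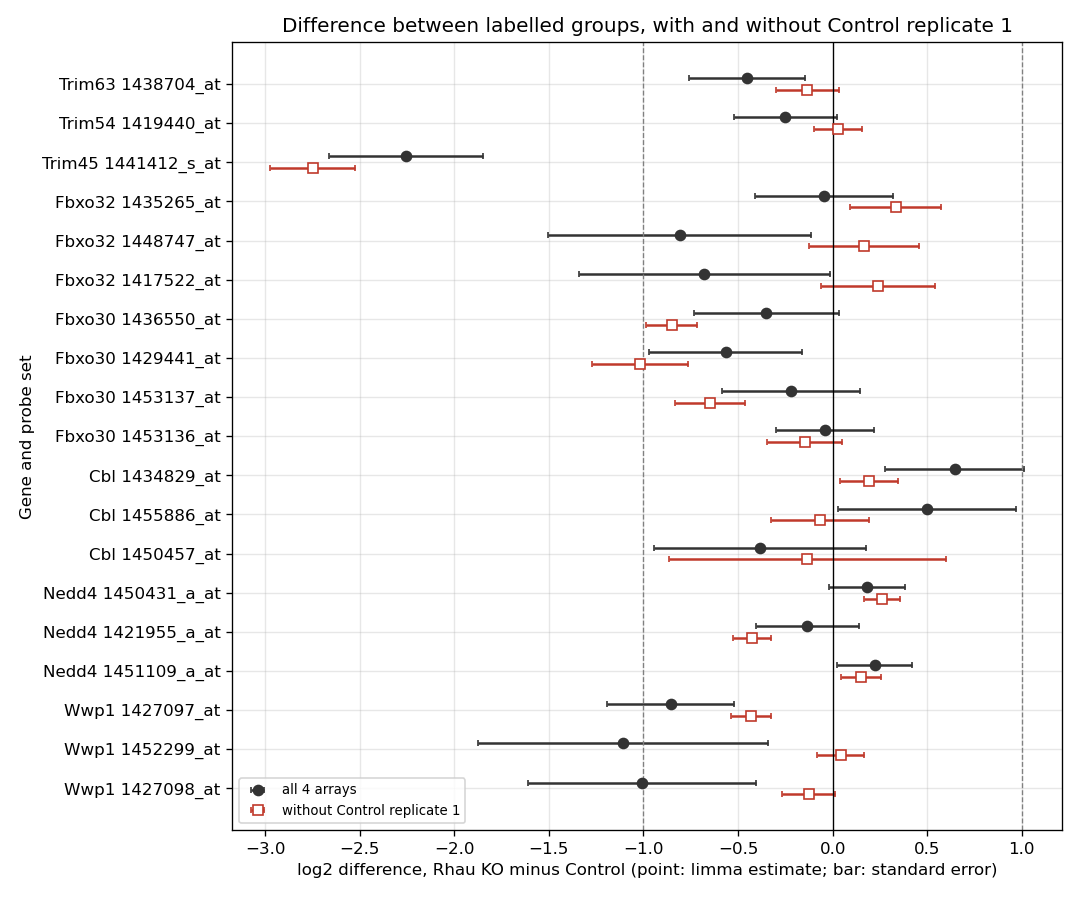
Log2 difference, Rhau KO minus Control, of the 19 ligase probe sets by limma, with bars for the standard error, for all 4 arrays (black circles) and without Control rep1 (open red squares), and dashed lines at a 2-fold difference. Trim45 stays beyond the 2-fold line in both (-2.26 and -2.75), while Wwp1 moves from -1.11 to -0.86 with all arrays to between -0.43 and 0.04.

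The other genes of the pathway were read from lists, each gene by its brightest probe set. Of 16 measured genes of ubiquitin, E1, E2 and Cul1 complex partners, 0 passed both thresholds, against 3.36% of all probe sets, with a median log2 difference of -0.18. Those with the smallest p were Ube2d2a, an E2 that works with RING ligases, at 8784 and 7917 in the Rhau KO arrays and 4224 and 5303 in the Control arrays, and Ube2g1, an E2 at 7311 and 6948 against 10982 and 10814. Their log2 differences were 0.82 and -0.61 (standard errors 0.22 and 0.20, adjusted p = 0.892 from limma). Without Control rep1 they were 0.65 and -0.60. Cul1, the scaffold used by Fbxo32, read 1692 and 1753 against 3250 and 2050, and Ube2n, an E2 for chain building, read 1143 and 1120 against 698 and 920.

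Of 31 other ligases of striated muscle, Trim32 alone passed both thresholds, against 3.36% of all probe sets. Trim32, a TRIM ligase mutated in a limb-girdle muscular dystrophy, read 461 and 469 in the Rhau KO arrays, 1322 in Control rep1 and 2629 in Control rep2. As with Trim45, Control rep2 was the highest array and the groups did not overlap. The mean of Trim32 was 465 ± 5.69 against 1975 ± 925 (SD, n = 2 each, adjusted p = 0.892 from limma), and the log2 difference was -2.50 without Control rep1 (adjusted p = 0.0208 from limma). Klhl40, a Cul3 adaptor of skeletal muscle, read 1015 and 1018 against 5135 in Control rep1 and 1283 in Control rep2. Rnf207, a cardiac RING protein, read 2279 and 1993 against 17.6 in Control rep1 and 1432 in Control rep2. Cblb, the relative of Cbl, read 521 and 422 against 670 and 673. Of the 31 genes, 6 stood over 2-fold above the other arrays in Control rep1, against 6.02% of all probe sets. A further 2 stood over 2-fold below, against 10.7%. The median log2 difference of this list was -0.03.

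Of 37 regulators upstream of the ligases, 3 passed both thresholds, against 3.36% of all probe sets, each lower in the Rhau KO arrays, with a median log2 difference of -0.24. Foxo4, a FOXO factor, read 493 and 559 against 2183 in Control rep1 and 1006 in Control rep2. Smad3, a mediator of myostatin and TGF-beta signals, read 796 and 661 against 4152 and 1240. Irs2, an insulin receptor substrate, read 260 and 280 against 715 and 1058. The log2 difference was -1.64 for Smad3 and -1.69 for Irs2 (standard errors 0.60 and 0.30), and Foxo4 averaged 526 ± 46.7 against 1595 ± 832 (SD, n = 2 each), each with adjusted p = 0.892 from limma. With Control rep1 left out the log2 differences of Foxo4, Smad3 and Irs2 were -0.94, -0.77 and -1.97, and of these Irs2 passed the adjusted threshold (adjusted p = 0.0382 from limma). Bmpr1a, a BMP receptor, read 2664 and 2088 against 4336 and 4308, and its log2 difference was -0.87 (standard error 0.22). Foxo1 and Foxo3, chosen after their values were seen as the FOXO factors best known for these ligases, read 658 and 589 against 1429 and 672, and 1467 and 1919 against 1436 and 1482. Neither passed both thresholds.

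Of 28 partners and substrates, 1 passed both thresholds as higher and 1 as lower, against 3.36% of all probe sets, with a median log2 difference of -0.01. In Control rep1, 5 of the 28 read over 2-fold below the other arrays, against 10.7% of all probe sets, and 3 over 2-fold above, against 6.02%. The largest log2 differences were those of Tnni3, Mybpc3 and Myh6, at 5.93, 4.52 and 4.17. Without Control rep1 they were -0.01, 0.01 and -0.01. Pik3r1, a regulatory subunit of PI3K, read 3225 and 4142 against 1230 and 1687, with a log2 value higher by 1.34 (standard error 0.27, adjusted p = 0.892 from limma), and 1.12 without Control rep1. Myh7, a myosin heavy chain, read 5095 and 15848 against 37865 and 32278. Ppp3ca, a calcineurin subunit and target of Fbxo32, read 1652 and 1665 against 9086 in Control rep1 and 2157 in Control rep2, so that Control rep1 was the highest, as it was for Wwp1. Grb10, a signaling adaptor bound by Nedd4, read 2367 and 2169 against 3366 and 4334. Of 25 other genes of the atrophy response, Gadd45a and Atf4 passed both thresholds, against 3.36% of all probe sets, both lower in the Rhau KO arrays, with a median log2 difference of 0.01. Gadd45a, a growth arrest and DNA damage gene, read 527 and 759 against 2757 and 3365, and its log2 difference was -2.27 (standard error 0.28), or -2.41 with Control rep1 left out (adjusted p = 0.0382 from limma). Atf4, a stress transcription factor upstream of Gadd45a, read 3417 and 2685 against 7711 and 5387, and its log2 difference was -1.09 (standard error 0.28, adjusted p = 0.892 from limma), and -0.83 without Control rep1. Cdkn1a, a cell cycle inhibitor, read 835 and 810 against 1635 and 1281, and Map1lc3a, an autophagy protein, 18795 and 16949 against 11748 and 13844. Without Control rep1, the medians of these 5 lists in the order given were 0.08, -0.00, -0.11, -0.11 and 0.10.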

How the data were processed

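RNA labelled as heart, 2 arrays per group, was measured on Affymetrix arrays. The authors normalized the scans by the MAS 5 algorithm (MAS5 in the submitters' processing notes), and the deposited intensities are on a linear scale with 1 trimmed mean for all arrays. Detection calls and scan dates were not used. Between 51.8% and 54.0% of intensities per array were under 100, and precision is limited by the number of arrays.

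Of 45101 probe sets, 64 controls were left out. Symbols came from the platform annotation, in which 34945 of the others carry 1 symbol, 932 several and 9160 none. Log2 intensities of all 45037 were fitted in limma 3.58.1 (lmFit, then eBayes with a variance trend; R 4.3.3) as Rhau KO minus Control, and Benjamini-Hochberg adjustment ran over every probe set. A gene of a list was read by its brightest probe set. Named genes were all members, up to 4 genes of each list with the smallest p, the 3 genes nearest in pattern to Trim63 and to Fbxo32 among 11107, Dhx36, Tnni3 and Actn3. The members and lists were chosen with earlier results of these data known. Trim45 and Gadd45a were among candidates the study drew partly from calls on these same arrays, so their passing is no independent support. Hspa1a was chosen after its values were seen, as were Ttn, Ckm, Mybpc3 and Myh6. Promoter sequences came from RefSeq (GRCm38.p6). The code was tested on simulated data. Tables were read with Python 3.11.15 and pandas 2.3.3.

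The alternatives were no variance trend, quantile normalization, median centring, a pseudocount of 32, the brighter probe sets alone, 1 or the mean of the probe sets of a gene, a block for replicate number, the methods' t-test on these log2 values, and leaving out each array.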

Additional observations from a re-analysis of the deposited data

How the results depend on the processing

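Trim45 passed both thresholds under every alternative run for it. The count of all probe sets past both thresholds, 1514, went to 744 with a pseudocount of 32, 434 of 22518 with the brighter probe sets alone, 599 of 18193 with 1 probe set per gene and 639 with their mean, where fewer features are tested, and to 898 to 7016 with 1 array left out. At the adjusted threshold the count was 0 to 6286 with 1 array left out. For the ligase probe sets these ranges were 1 to 8 (2 without Control rep1) and 0 to 9 (1 without Control rep1). In the 5 pathway lists, 8 of 137 genes passed both thresholds (3.36% of all probe sets did), 13 with the replicate block (1606 of all 45037 did) and 4 to 44 with 1 array left out, the 44 without Control rep2, where 15.6% of all probe sets passed. The deviations of arrays with the same replicate number were not correlated (0.003). With Control rep1 so unlike Control rep2, this cannot show whether the numbers pair the arrays. With the replicate block 1606 probe sets and 1 ligase probe set, again Trim45, passed both thresholds and 0 the adjusted threshold. By limma, Wwp1 (1427097_at) went from an unadjusted p of 0.0521 to 0.0496 with the block and to 0.0393 with median centring. Neither moved another ligase probe set across the unadjusted p threshold or past both thresholds.

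Of 235 recomputed log2 differences of ligase probe sets, 14 changed sign, 12 of them with 1 array left out. Over the arrays left out, the log2 difference ran from -0.53 to 0.0287 for Trim54, from -0.42 to 0.33, -1.78 to 0.17 and -1.59 to 0.24 for the probe sets of Fbxo32, from -0.85 to 0.15, -0.65 to 0.20 and -0.15 to 0.0669 for those of Fbxo30, from -0.0659 to 1.06 for Cbl (1455886_at), from -0.43 to 0.16 for Nedd4 (1421955_a_at) and from -2.26 to 0.0438 for Wwp1 (1452299_at). Averaged over the probe sets of each gene, the log2 difference was 0.25 for Cbl and 0.0895 for Nedd4. The cause was not tested. Intensities under 100, as for Cbl (1450457_at), are limited by signal over background, which no detection call was used to judge.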
